A study of Caenorhabditis elegans with 18 samples.

Results

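Glutathione S-transferase genes were followed in whole Caenorhabditis elegans kept in heavy metal soil to which nanoscale zero-valent iron (nZVI) had or had not been added. Every gene whose only symbol in the array's annotation was gst- or gsto- and a number was included, which gave 46 genes of the 25478 measured genes with a single symbol. All 46 symbols were found in the RefSeq gene table (assembly WBcel235). Each gene had 1 probe set on the array, so no choice between probe sets was needed.

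The animals were wild type N2, L4 larvae and young adults when they were added to the soil. They stayed for 48 h at 20 °C in the dark, with Escherichia coli OP50 as food, in wells of 0.3 g soil. The soil's metal load was 310 mg/kg for cadmium, 2700 mg/kg for lead and 4200 mg/kg for zinc. The 6 groups were nZVI soil and control soil of the 0 days sampling, nZVI soil and control soil of 14 days, and nZVI soil and control soil of 4 months, with 3 arrays each. Control soil held the metals too, without nZVI, so no group was free of lead, zinc and cadmium. The labels do not say from which event the sampling times were counted. They name 3 independent RNA preparations per group but not separate cultures, so p-values measure the spread between these arrays, which may be technical.

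Glutathione S-transferases join the tripeptide glutathione to reactive, electron-poor molecules, which can then be carried out of the cell by ABC transporters. Nematodes have a large expanded set of these enzymes that is often placed near the Sigma class, beside a few members of the Pi, Zeta and Omega classes that other animals share. In C. elegans many of the genes are switched on by SKN-1, the Nrf-like transcription factor of the oxidative and electrophile stress response, and gst-4 is its standard reporter.

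Values are RMA log2 signals of whole animals, in which fewer cells of a type and less RNA per cell cannot be told apart. Array medians lay between 3.85 and 3.99. Of the 46 genes, 25 lay above the array median on all 18 arrays, 14 were below it on some arrays, and 7 were below it on all of them (gst-2, gst-10, gst-19, gst-21, gst-40, gst-44 and gsto-2). A gene is called higher or lower where limma's Benjamini-Hochberg adjusted p over all 28387 probe sets was under 0.05. Differences are log2 units, nZVI soil minus control soil, with the standard error of the fit. Where called genes are said not to overlap between groups, they were picked by their call, so this adds no separate support. The share of all probe sets without overlap is not given here.

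Most of the family's genes called in a soil comparison were lower in nZVI soil. At 0 days 11 genes were called lower and 3 higher, which is 30.4% of the family, against 16% of all probe sets (7.74% lower and 8.22% higher). At 14 days 16 genes were called lower and 0 higher, 34.8% of the family against 8.99% of all probe sets (5.39% lower and 3.60% higher). At 4 months 9 genes were called lower and 0 higher, 19.6% of the family against 7.08% of all probe sets (2.30% lower and 4.77% higher). With a difference of at least 2-fold also required, 7, 11 and 3 genes were called at 0 days, 14 days and 4 months, against 6.08%, 4.26% and 3.30% of all probe sets. The family's median difference was -0.13 at 0 days, -0.34 at 14 days and -0.24 at 4 months, beside medians of -0.01, 0.04 and -0.03 over all probe sets. The mean log2 signal of the 46 genes was 5.32 to 5.53 on the nZVI arrays against 5.55 to 5.65 on the control arrays of 0 days. It was 5.03 to 5.11 in nZVI soil against 5.44 to 5.55 in control soil at 14 days, and 5.05 to 5.21 in nZVI soil against 5.37 to 5.53 in control soil at 4 months. The ranges of the family mean did not overlap at any of the 3 times, but at 0 days they nearly met, at 5.53 and 5.55. Centring the arrays on their medians moved the 0 days median difference of all probe sets by 0.055, more than that gap. How often other sets of genes show no overlap is not given here.

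The 4 months count rested on single arrays: it was 5 where control array 1 or 3 was left out, 4 on omitting nZVI array 2 and 3 on omitting nZVI array 3. It was also 4 where only the 6 arrays of that time were fitted. With same-numbered arrays of each time as a block, gst-21 and gsto-2 were not called at 4 months (limma, adjusted p = 0.0539 and 0.0554). In that fit gst-34 was called lower (adjusted p = 0.021) and gst-28 higher (adjusted p = 0.0368), so the genes called there depend on the pairing. With array weights the 14 days count was 25 genes, 21 lower and 4 higher. In that fit control array 2 of 14 days had a weight of 5.81, against 0.33 to 1.91 for the other arrays of that time. The weighted 14 days calls therefore lean on this array.

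Some markers of other tissues also differed between the soils. Over all probe sets 8.22%, 3.60% and 4.77% were called higher at 0 days, 14 days and 4 months, and 7.74%, 5.39% and 2.30% lower. In lists this small 1 called gene does not show a shift of its tissue. Of 8 intestinal markers 6 were higher in nZVI soil at 0 days, 3 at 14 days and 3 at 4 months. Their mean signal was 8.70 to 8.87 in nZVI soil against 7.78 to 8.08 in control soil at 0 days. It was 8.45 to 8.90 in nZVI soil against 8.23 to 8.37 in control soil at 14 days. At 4 months it was 8.42 to 8.54 in nZVI soil against 7.54 to 8.21 in control soil. Of 8 hypodermis and cuticle markers 1 was higher and 2 lower at 0 days, 6 were higher at 14 days and 3 at 4 months. Their mean was 6.10 to 6.36 in nZVI soil against 6.44 to 6.58 in control soil at 0 days. It was 7.46 to 7.90 in nZVI soil against 6.44 to 6.47 in control soil at 14 days. At 4 months it was 7.88 to 8.01 in nZVI soil against 6.78 to 7.06 in control soil. Of 10 germline markers 5 were lower at 0 days and 0 at the later times, and their mean was 7.10 to 7.73 in nZVI soil against 8.07 to 8.19 in control soil at 0 days. At the later times the germline means of the soils overlapped. Body wall muscle markers were higher in 1, 2 and 2 of 6 at 0 days, 14 days and 4 months, oocyte and yolk markers in 0, 1 and 1 of 7, and sperm markers in 0, 0 and 1 of 5. Of 6 neuronal markers 0 were called. The part of these shifts in the glutathione S-transferase values was not tested.

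**Figure D1:**
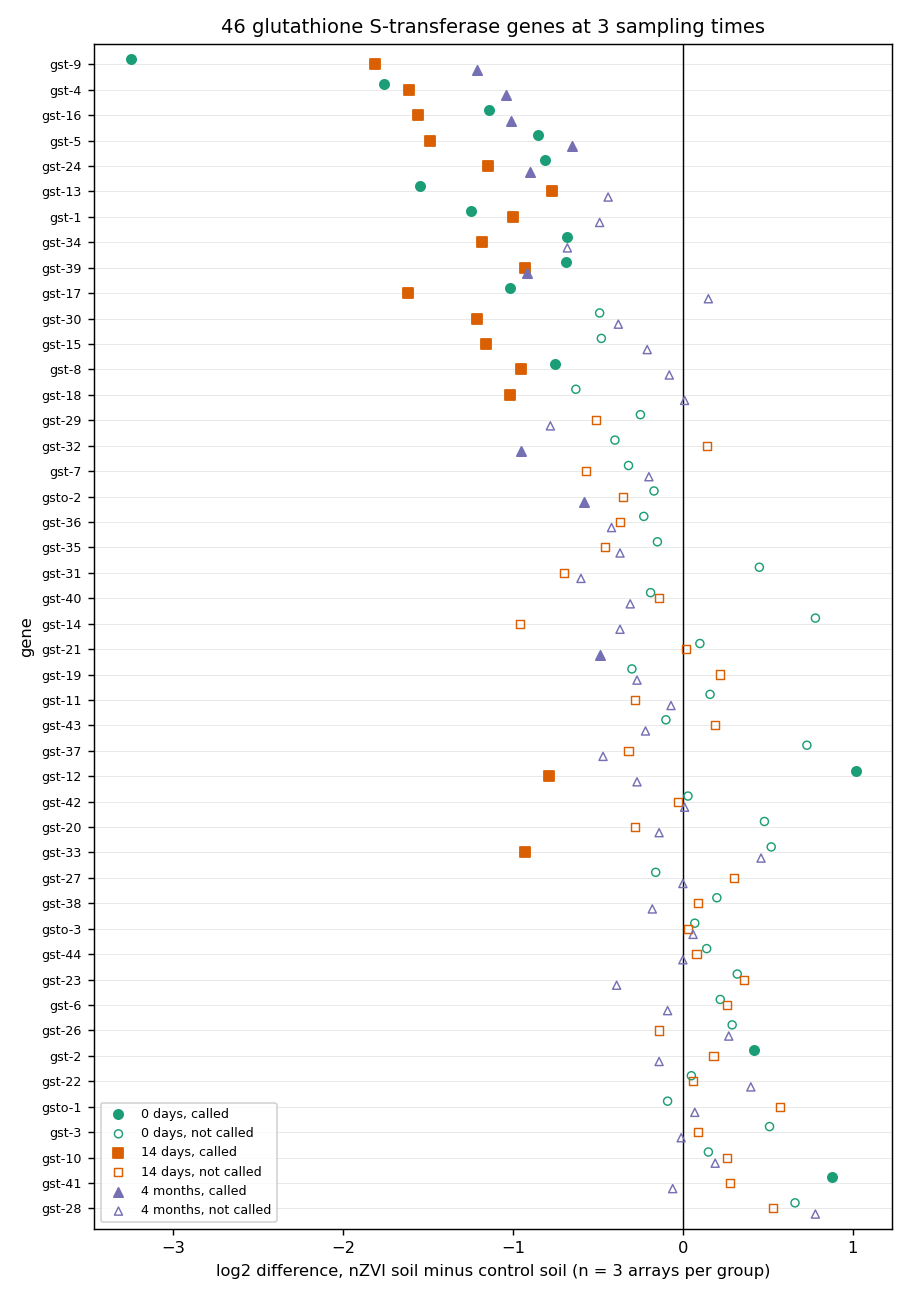
Log2 difference (nZVI soil minus control soil, x axis) of the 46 glutathione S-transferase genes (y axis, ordered by their mean difference) at 0 days (circles), 14 days (squares) and 4 months (triangles), filled where called. The genes at the top, gst-9, gst-4, gst-16, gst-5 and gst-24, lie left of 0 at all 3 times, while gst-12 lies right of 0 at 0 days and left of it at 14 days.

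Called at 1 or more of the 3 times were 21 of the 46 genes, against 23.8% of all probe sets, and 25 were called at none. Called lower at every time were 6 of the 46, against 0.447% of all probe sets: gst-4, gst-5, gst-9, gst-16, gst-24 and gst-39. All 11 genes lower at 0 days were among the 16 lower at 14 days, that is 100% of the first list and 68.8% of the second. Over all probe sets the same overlap was 41.1% of the 0 days list and 59.1% of the 14 days list. Between 0 days and 4 months 6 genes were shared, 54.5% of the first list and 66.7% of the second, beside 7.15% and 24% over all probe sets. These comparisons use separate arrays, but all arrays entered the same limma model, which gave each gene a shared estimate of its spread. A gene with a small spread is more readily called at every time, so the lists are not independent. The shares over all probe sets come from the same model.

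The largest difference of the family was that of gst-9. At 0 days its signals were 4.24, 5.13 and 4.84 in nZVI soil, against 8.26, 7.79 and 7.93 in control soil. At 14 days they were 5.94, 6.15 and 5.69 in nZVI soil, against 7.60, 7.80 and 7.81 in control soil. At 4 months they were 6.94, 6.88 and 7.10 in nZVI soil, against 8.11, 8.05 and 8.41 in control soil. Every nZVI array lay below every control array of its time, and the control arrays of the 3 times lay close together while the nZVI arrays were lowest at 0 days and highest at 4 months. The limma differences were -3.25 ± 0.20 (SE, adjusted p = 5.0e-08), -1.81 ± 0.20 (adjusted p = 1.5e-05) and -1.21 ± 0.20 (adjusted p = 0.00156), or 9.54-fold, 3.51-fold and 2.32-fold lower at 0 days, 14 days and 4 months. These calls held without any 1 array.

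The SKN-1 reporter gene gst-4 had signals of 6.43, 6.51 and 5.68 in nZVI soil against 8.07, 8.09 and 7.73 in control soil at 0 days. At 14 days it had 5.73, 6.21 and 6.22 in nZVI soil against 7.12, 7.69 and 8.18 in control soil. At 4 months it had 6.62, 6.88 and 6.88 in nZVI soil against 7.49, 7.93 and 8.09 in control soil. The nZVI arrays were lower than the control arrays throughout, with no overlap. By limma gst-4 was lower by -1.76 ± 0.26 (adjusted p = 1.6e-04) at 0 days, -1.61 ± 0.26 (adjusted p = 5.7e-04) at 14 days and -1.04 ± 0.26 (adjusted p = 0.0209) at 4 months. The 4 months call was lost without control array 3 or without any of the 3 nZVI arrays, with adjusted p between 0.0554 and 0.108.

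Among the other genes lower at every time, gst-16 had signals of 5.53, 5.61 and 5.53 in nZVI soil against 6.49, 6.95 and 6.65 in control soil at 0 days. Its 14 days signals were 5.11, 5.33 and 5.18 in nZVI soil against 6.91, 6.71 and 6.67 in control soil. Its 4 months signals were 6.20, 5.85 and 5.64 in nZVI soil against 6.85, 6.86 and 7.01 in control soil. The 2 soils did not overlap at any time, and the control arrays stayed between 6.49 and 7.01. The differences were -1.14 ± 0.15, -1.56 ± 0.15 and -1.01 ± 0.15 at 0 days, 14 days and 4 months (limma, adjusted p = 7.1e-05, 6.6e-06 and 8.7e-04), and they held without any 1 array.

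For gst-5 the 0 days signals were 5.69, 5.98 and 5.72 in nZVI soil against 6.68, 6.66 and 6.60 in control soil. At 14 days gst-5 read 4.75, 4.85 and 4.56 in nZVI soil against 6.39, 6.31 and 5.94 in control soil. At 4 months gst-5 read 5.84, 5.47 and 5.42 in nZVI soil against 6.32, 6.18 and 6.18 in control soil. The soils were separate at each time, and the gap was widest at 14 days. Limma gave -0.85 ± 0.15 (adjusted p = 8.8e-04), -1.49 ± 0.15 (adjusted p = 7.9e-06) and -0.65 ± 0.15 (adjusted p = 0.0157) at 0 days, 14 days and 4 months. Omitting control array 1 or nZVI array 2 or 3 ended its 4 months call (adjusted p between 0.0652 and 0.0782), as did a fit of the 4 months arrays alone (adjusted p = 0.107).

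The difference of gst-24 was -0.81 ± 0.22, -1.15 ± 0.22 and -0.90 ± 0.22 at 0 days, 14 days and 4 months (limma, adjusted p = 0.0204, 0.00287 and 0.0224). At 0 days its signals were 7.48, 7.66 and 6.80 in nZVI soil against 8.35, 8.08 and 7.95 in control soil. At 14 days its signals were 6.43, 6.75 and 6.62 in nZVI soil against 7.84, 7.73 and 7.67 in control soil, and at 4 months 7.64, 6.99 and 6.84 in nZVI soil against 8.13, 7.78 and 8.25 in control soil. The soils of a time did not overlap, and nZVI array 1 of 4 months came closest to its control arrays. The 0 days call of gst-24 ended on omitting control array 1 (adjusted p = 0.0937) and on omitting nZVI array 3 (adjusted p = 0.122), and the 4 months call was lost without control array 1 or 3 or nZVI array 2 or 3 (adjusted p between 0.0793 and 0.114) and with the 4 months arrays fitted alone (adjusted p = 0.11).

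For gst-39 the differences were -0.69 ± 0.19, -0.93 ± 0.19 and -0.92 ± 0.19 at the same times (limma, adjusted p = 0.0186, 0.00349 and 0.00644). Its 0 days signals were 6.60, 7.05 and 7.17 in nZVI soil against 7.42, 7.69 and 7.76 in control soil. The 14 days signals were 6.31, 6.52 and 6.38 in nZVI soil against 7.64, 7.47 and 6.88 in control soil, and those of 4 months 6.83, 6.62 and 6.64 in nZVI soil against 7.75, 7.58 and 7.54 in control soil. The soils were again separate at each time. The 0 days call of gst-39 was lost without control array 2 or 3 or nZVI array 1 (adjusted p between 0.0647 and 0.0857), while its calls at 14 days and 4 months held without any 1 array.

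**Figure D2:**
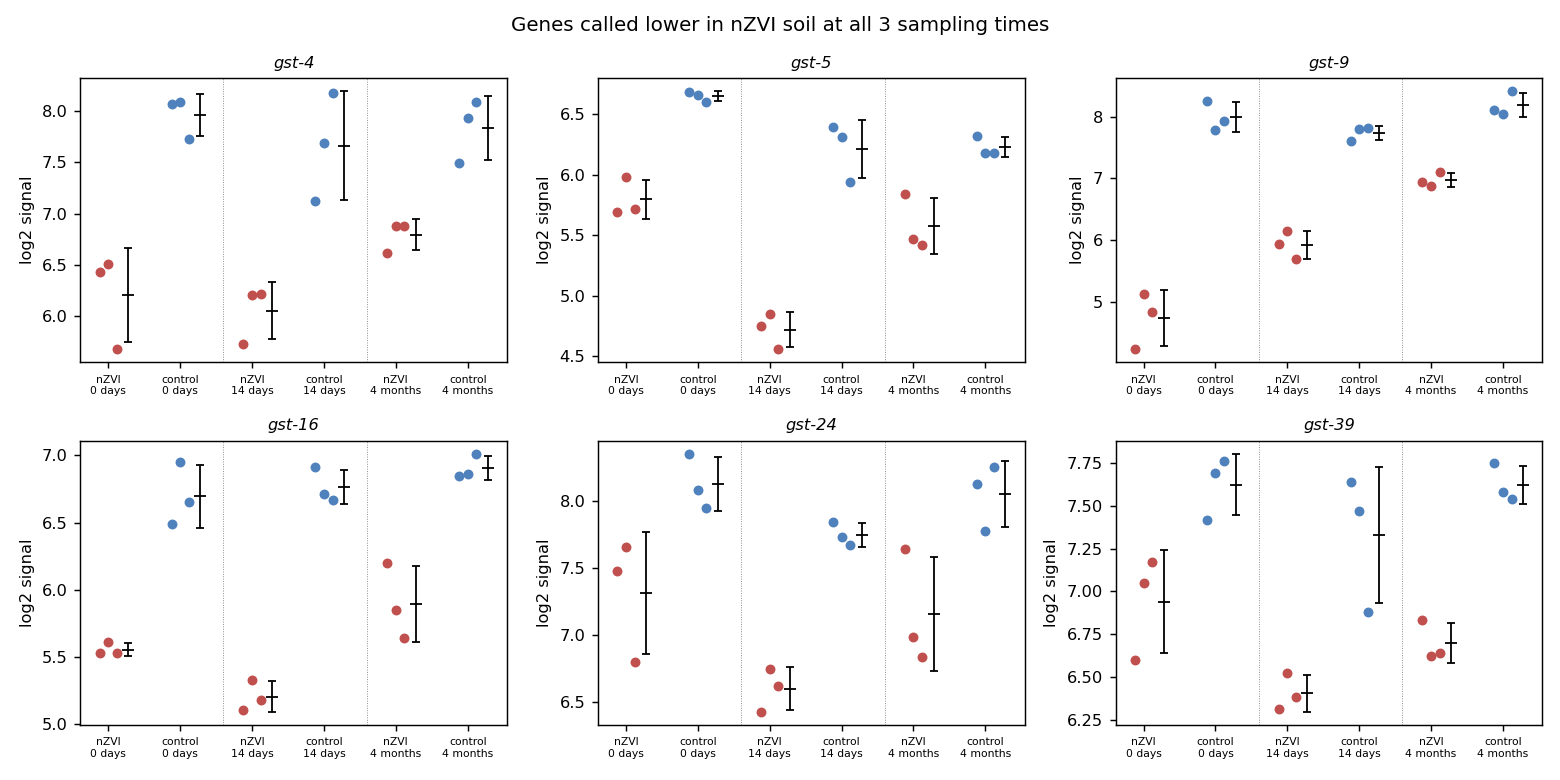
Log2 signal (y axis) of the 6 genes called lower in nZVI soil at all 3 sampling times, by soil and time (x axis), with a point for each array and the mean ± SD of 3 arrays beside the points. In each panel the nZVI points lie below the control points of the same time, and for gst-9 the nZVI points are at 4.24 to 5.13 at 0 days and at 6.88 to 7.10 at 4 months.

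A second set, gst-1, gst-8, gst-13, gst-17 and gst-34, was called lower at 0 and 14 days and not at 4 months. The Pi class gene gst-1 had signals of 9.76, 9.75 and 9.36 in nZVI soil against 10.94, 10.84 and 10.82 in control soil at 0 days. At 14 days gst-1 had 9.31, 9.26 and 8.74 in nZVI soil against 10.15, 10.20 and 9.98 in control soil. At 4 months gst-1 had 10.03, 9.64 and 9.47 in nZVI soil against 10.31, 10.21 and 10.09 in control soil. No nZVI array reached a control array of its time, and the gap was smallest at 4 months. Limma gave -1.25 ± 0.18 (adjusted p = 1.0e-04), -1.0 ± 0.18 (adjusted p = 0.00115) and -0.49 ± 0.18 (adjusted p = 0.0999).

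For gst-13 the 0 days signals were 6.54, 6.69 and 6.11 in nZVI soil against 8.20, 8.10 and 7.69 in control soil. At 14 days gst-13 had 6.67, 6.70 and 6.52 in nZVI soil against 7.23, 7.38 and 7.60 in control soil. At 4 months it had 6.93, 6.87 and 6.97 in nZVI soil against 7.18, 7.40 and 7.50 in control soil. The soils stayed apart, with a gap that was widest at 0 days. The differences of gst-13 were -1.55 ± 0.17 (adjusted p = 8.6e-06), -0.77 ± 0.17 (adjusted p = 0.00678) and -0.44 ± 0.17 (limma, adjusted p = 0.127).

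The signals of gst-17 were 3.99, 4.39 and 4.02 in nZVI soil against 5.20, 5.13 and 5.13 in control soil at 0 days. At 14 days they were 3.72, 4.03 and 3.83 in nZVI soil against 5.57, 5.62 and 5.24 in control soil. At 4 months they were 4.67, 4.88 and 4.52 in nZVI soil against 4.27, 5.12 and 4.22 in control soil. The soils were separate at the first 2 times and mixed at 4 months, where control array 2 was high and the other control arrays were below all nZVI arrays. Limma gave -1.02 ± 0.21 (adjusted p = 0.00245), -1.62 ± 0.21 (adjusted p = 6.4e-05) and 0.15 ± 0.21 (adjusted p = 0.703).

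The remaining pair of this set, gst-34 and gst-8, had larger p-values at 0 days. The signals of gst-34 were 5.05, 4.32 and 5.26 in nZVI soil against 5.76, 5.36 and 5.56 in control soil at 0 days, and 4.59, 4.50 and 4.93 in nZVI soil against 5.70, 5.91 and 5.95 in control soil at 14 days. At 4 months gst-34 had 5.38, 5.62 and 5.33 in nZVI soil against 6.14, 6.34 and 5.90 in control soil. For gst-34 the difference was -0.68 ± 0.21 (adjusted p = 0.0325) at 0 days, -1.18 ± 0.21 (adjusted p = 0.0012) at 14 days and -0.68 ± 0.21 (limma, adjusted p = 0.0564) at 4 months, and the soils did not overlap at any time. With same-numbered arrays of each time as a block, gst-34 was called lower at 4 months too (limma, adjusted p = 0.021). The signals of gst-8 were 3.73, 4.16 and 4.42 in nZVI soil against 4.63, 4.66 and 5.26 in control soil at 0 days, and 4.72, 4.85 and 4.70 in nZVI soil against 5.98, 5.76 and 5.38 in control soil at 14 days. At 4 months they were mixed, with 4.49, 4.52 and 4.95 in nZVI soil against 5.10, 4.76 and 4.34 in control soil. For gst-8 the difference was -0.75 ± 0.23 (adjusted p = 0.0353), -0.95 ± 0.23 (adjusted p = 0.0135) and -0.08 ± 0.23 (limma, adjusted p = 0.88). The 0 days call of gst-34 was lost without control array 1 or 3 or nZVI array 2 (adjusted p between 0.074 and 0.181), and that of gst-8 without control array 3 or nZVI array 1 or 2 (adjusted p between 0.0756 and 0.162). The 14 days call of gst-8 was lost without control array 1 or 2 or nZVI array 1 (adjusted p between 0.0529 and 0.0734). With arrays centred on their medians neither gene was called at 0 days, and gst-34 was also not called there with the arrays of that time fitted alone.

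At 14 days alone gst-15, gst-18, gst-30 and gst-33 were called lower, as was gst-12, which is described with the higher genes. The signals of gst-30 were 6.33, 6.83 and 6.30 in nZVI soil against 7.91, 7.85 and 7.34 in control soil. Those of gst-15 were 5.42, 4.54 and 5.41 in nZVI soil against 6.50, 6.26 and 6.10 in control soil. Both were fully separate, with differences of -1.21 ± 0.20 (adjusted p = 6.2e-04) for gst-30 and -1.16 ± 0.25 (limma, adjusted p = 0.00639) for gst-15, and both calls held without any 1 array. For gst-18, below the array median on 16 of the 18 arrays, the signals were 3.01, 3.52 and 3.02 in nZVI soil against 4.42, 4.71 and 3.47 in control soil. The groups overlapped, and the difference was -1.02 ± 0.27 (limma, adjusted p = 0.0252). This call was lost without control array 1 or 2 or nZVI array 1 or 3 (adjusted p between 0.092 and 0.151), and with the 14 days arrays fitted alone. For gst-33 they were 6.37, 6.21 and 6.02 in nZVI soil against 7.29, 7.07 and 7.04 in control soil, without overlap. The difference of gst-33 was -0.93 ± 0.26 (limma, adjusted p = 0.028) and was lost on leaving out any of the 6 arrays, the 3 control and the 3 nZVI arrays of 14 days (adjusted p between 0.0523 and 0.105). Its differences at 0 days and 4 months were 0.52 ± 0.26 (adjusted p = 0.196) and 0.46 ± 0.26 (adjusted p = 0.291).

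At 4 months alone gst-21, gst-32 and gsto-2, an Omega class gene, were called lower. The signals of gst-32 were 3.31, 3.12 and 3.32 in nZVI soil against 4.00, 3.85 and 4.76 in control soil, a difference of -0.95 ± 0.26 (limma, adjusted p = 0.0343). Those of gst-21 were 2.64, 2.44 and 2.69 in nZVI soil against 3.23, 3.09 and 2.93 in control soil (-0.49 ± 0.13, limma adjusted p = 0.0351). Those of gsto-2 were 2.41, 2.82 and 2.54 in nZVI soil against 3.37, 3.10 and 3.02 in control soil (-0.58 ± 0.16, limma adjusted p = 0.0395). The groups did not overlap, but gst-21 and gsto-2 lay below the array median on all 18 arrays, and gst-32 on 13 of the 18. The call of gst-32 was lost without control array 1 or 3 or any of the 3 nZVI arrays (adjusted p between 0.0584 and 0.181). That of gst-21 was lost without control array 1 or any of the 3 nZVI arrays (adjusted p between 0.0619 and 0.149), and that of gsto-2 without control array 1 or 3 or nZVI array 1 or 3 (adjusted p between 0.0678 and 0.16). All 3 were lost where only the 4 months arrays were fitted (adjusted p between 0.1 and 0.173), and gst-21 and gsto-2 also with array weights (adjusted p = 0.0542 and 0.0777). With the replicate block gst-21 (adjusted p = 0.0539) and gsto-2 (adjusted p = 0.0554) were not called.

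Called higher in nZVI soil were gst-2, gst-12 and gst-41, all at 0 days. The signals of gst-12 were 7.25, 7.10 and 7.02 in nZVI soil against 5.98, 6.22 and 6.12 in control soil at 0 days. At 14 days they were 5.36, 5.09 and 5.52 in nZVI soil against 6.20, 6.27 and 5.88 in control soil. At 4 months they were 5.66, 5.50 and 5.59 in nZVI soil against 5.52, 5.98 and 6.05 in control soil. The nZVI arrays were all above the control arrays at 0 days, all below them at 14 days, and mixed with them at 4 months. The differences were 1.02 ± 0.16 (adjusted p = 3.4e-04), -0.79 ± 0.16 (adjusted p = 0.00409) and -0.27 ± 0.16 (limma, adjusted p = 0.347). This was the only gene of the 46 called in both directions, and its calls at 0 and 14 days held without any 1 array.

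For gst-41 the 0 days signals were 3.74, 4.51 and 3.87 in nZVI soil against 3.49, 3.20 and 2.78 in control soil. They did not overlap, though gst-41 lay below the array median on 17 of the 18 arrays. The difference of 0.88 ± 0.20 (limma, adjusted p = 0.00703) held without any 1 array. For gst-2 they were 2.86, 2.80 and 2.51 in nZVI soil against 2.34, 2.26 and 2.28 in control soil, below the array median on all arrays, with a difference of 0.42 ± 0.14 (limma, adjusted p = 0.0409). That call was lost without any 1 of the 3 control arrays or without nZVI array 1 or 2 (adjusted p between 0.0816 and 0.13), and with the 0 days arrays fitted alone.

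Averaged over the 3 times, 17 genes were called lower and 2 higher, 41.3% of the family against 20.1% of all probe sets (9.13% lower and 11% higher). Of these 3 were at least 2-fold, against 2.83% of all probe sets. The difference of this mean was -2.09 ± 0.11 for gst-9 (adjusted p = 3.8e-09), -1.47 ± 0.15 for gst-4 (adjusted p = 1.6e-06), -1.23 ± 0.09 for gst-16 (adjusted p = 3.7e-08) and -1.0 ± 0.09 for gst-5 (limma, adjusted p = 3.1e-07). The mean added 3 genes called at no single time. They were gst-29 (-0.51 ± 0.16, adjusted p = 0.0317), gst-36 (-0.34 ± 0.08, adjusted p = 0.00665) and gst-28, which was higher (0.66 ± 0.16, limma adjusted p = 0.00753). For gst-28 the single differences were 0.66, 0.53 and 0.78 at 0 days, 14 days and 4 months, and with the replicate block at 4 months it was called higher (adjusted p = 0.0368). The mean for gst-29 was lost without control array 1 or nZVI array 3 of 0 days, control array 2 of 14 days, or control arrays 2 or 3 or nZVI arrays 2 or 3 of 4 months (adjusted p between 0.0534 and 0.0728). That for gst-41 (0.37 ± 0.12, adjusted p = 0.0357) was lost on leaving out 11 of the 18 arrays in turn (adjusted p between 0.0504 and 0.0795). Those 11 were control arrays 2 and 3 and nZVI array 2 of 0 days, all 6 arrays of 14 days, and control array 3 and nZVI array 2 of 4 months.

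Among the 25 genes not called at any time were well known members. The Pi class gene gst-10, whose product handles the lipid peroxidation product 4-hydroxynonenal, had differences of 0.15 ± 0.22, 0.26 ± 0.22 and 0.19 ± 0.22 at 0 days, 14 days and 4 months (limma, adjusted p = 0.734, 0.597 and 0.649). Its signals were 2.6, 3.25 and 2.91 in nZVI soil against 2.44, 3.20 and 2.69 in control soil at 0 days, 3.23, 2.72 and 3.49 in nZVI soil against 2.73, 2.82 and 3.12 in control soil at 14 days, and 2.78, 3.06 and 3.04 in nZVI soil against 2.89, 2.77 and 2.65 in control soil at 4 months. They overlapped at each time and lay below the array median on all arrays. With array weights gst-10 was called higher at 14 days (limma, adjusted p = 0.0419).

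The Zeta class gene gst-42, a maleylacetoacetate isomerase of tyrosine breakdown, had signals between 7.32 and 8.12 on all 18 arrays. At 0 days they were 7.45, 7.51 and 7.91 in nZVI soil against 7.76, 7.32 and 7.71 in control soil. At 14 days they were 8.04, 7.79 and 7.96 in nZVI soil against 7.90, 8.06 and 7.90 in control soil, and at 4 months 7.84, 7.93 and 7.92 in nZVI soil against 7.59, 8.12 and 7.94 in control soil. The soils overlapped at each time, with differences of 0.03 ± 0.17, -0.03 ± 0.17 and 0.01 ± 0.17.

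For gst-38 the differences were 0.20 ± 0.15, 0.09 ± 0.15 and -0.18 ± 0.15 (limma, adjusted p = 0.452, 0.817 and 0.506). Its signals were 6.28, 6.85 and 6.45 in nZVI soil against 6.34, 6.23 and 6.42 in control soil at 0 days, 7.06, 6.78 and 7.11 in nZVI soil against 6.93, 6.83 and 6.92 in control soil at 14 days, and 6.85, 6.69 and 6.83 in nZVI soil against 6.99, 7.15 and 6.79 in control soil at 4 months. The soils overlapped at each time. For gst-7 the differences were -0.32 ± 0.27, -0.57 ± 0.27 and -0.20 ± 0.27 (limma, adjusted p = 0.48, 0.238 and 0.689). Its signals were 5.81, 6.19 and 5.50 in nZVI soil against 6.45, 5.88 and 6.14 in control soil at 0 days, 5.47, 5.12 and 4.65 in nZVI soil against 5.83, 5.81 and 5.31 in control soil at 14 days, and 5.69, 5.67 and 5.06 in nZVI soil against 5.86, 6.0 and 5.18 in control soil at 4 months. Here too the soils overlapped each time, though with array weights gst-7 was called lower at 14 days (limma, adjusted p = 0.0263). Missing the threshold does not show that these genes were equal in the 2 soils.

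The dehydroascorbate reductase gene gsto-1, of the Omega class, had 14 days signals of 4.08, 4.12 and 4.05 in nZVI soil against 3.45, 3.51 and 3.58 in control soil. The arrays were well apart and higher in nZVI soil, with a difference of 0.57 ± 0.19 (limma, adjusted p = 0.0697), and 4 alternative settings called it higher. At 0 days it had 3.76, 3.86 and 3.75 in nZVI soil against 3.86, 3.93 and 3.84 in control soil, and at 4 months 3.86, 4.05 and 3.70 in nZVI soil against 3.42, 4.40 and 3.59 in control soil. The soils overlapped at both of those times, and control array 2 of 4 months was the highest of its group. Of the whole family, 18 genes had a negative difference at all 3 times, against 17.2% of all probe sets, and 5 a positive one, against 16.5% (gst-10, gst-22, gst-28, gst-44 and gsto-3). None of those 5 was called at a single time, at which their adjusted p lay between 0.102 (gst-28 at 4 months) and 0.999 (gst-44 at 4 months).

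The difference between soils itself changed with sampling time in 4 genes. Between 14 days and 0 days 2 of the 46 genes were called, 1 up and 1 down, against 1.05% of all probe sets (0.535% up and 0.518% down, 0.941% with at least 2-fold). For gst-12 the change was -1.81 ± 0.23 (adjusted p = 4.4e-04) and for gst-9 1.44 ± 0.28 (limma, adjusted p = 0.0163), a smaller gap at 14 days. Between 4 months and 0 days 4 of the 46 genes were called, 3 up and 1 down, against 4.32% of all probe sets (2.96% up and 1.35% down, 3.49% with at least 2-fold). These were gst-9 (2.04 ± 0.28, adjusted p = 5.4e-04), gst-12 (-1.28 ± 0.23, adjusted p = 0.00454), gst-13 (1.11 ± 0.24, adjusted p = 0.0148) and gst-17 (1.17 ± 0.29, limma adjusted p = 0.0302). Between 4 months and 14 days gst-17 alone was called (1.77 ± 0.29, adjusted p = 0.00895), against 1.36% of all probe sets (1.17% up and 0.190% down, 1.21% with at least 2-fold). The 14 days change of gst-9 fell short on omitting control array 1 of 0 days (adjusted p = 0.0585) and on omitting control array 1 of 14 days (adjusted p = 0.0507). The 4 months minus 0 days change of gst-17 was lost without any of the 3 control arrays of 0 days, nZVI array 1 or 3 of 0 days, control array 1 or 3 of 4 months, or nZVI array 1 or 2 of 4 months (adjusted p between 0.0535 and 0.0841), and with the arrays of these times fitted alone (adjusted p = 0.0564).

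**Figure D3:**
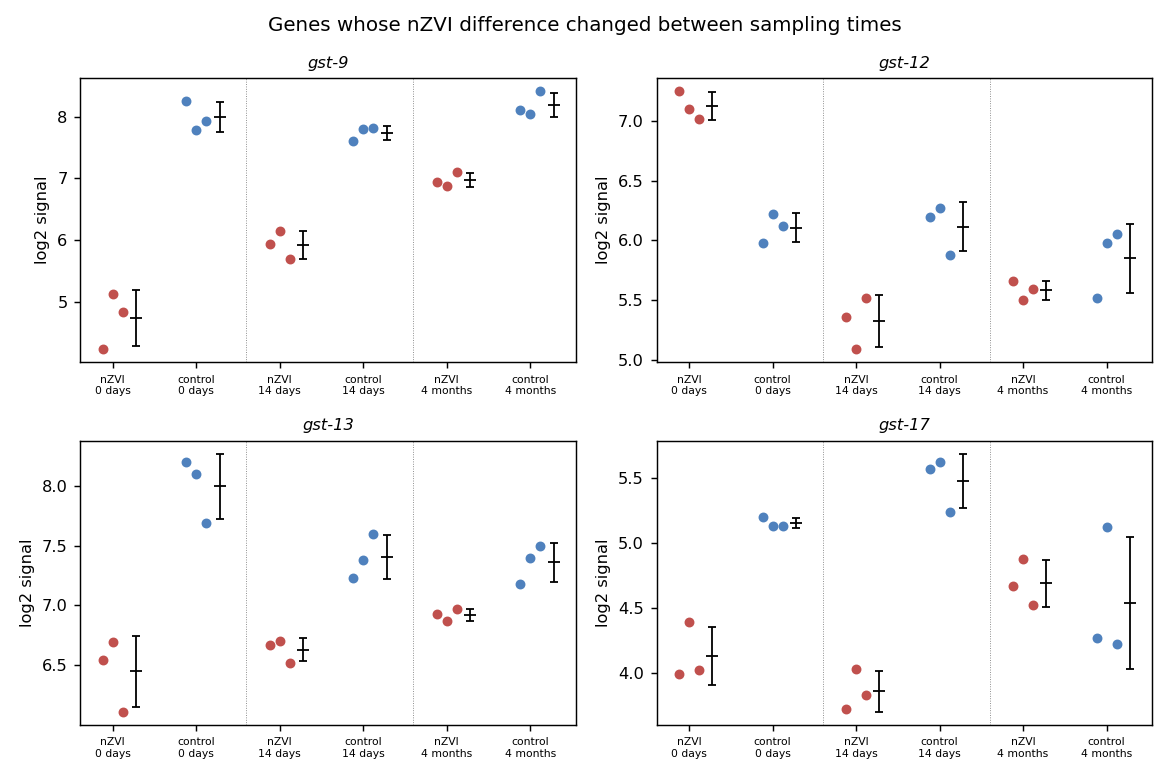
Log2 signal (y axis) of gst-9, gst-12, gst-13 and gst-17 by soil and sampling time (x axis), with a point for each array and the mean ± SD of 3 arrays beside the points. For gst-12 the nZVI points lie above the control points at 0 days (7.02 to 7.25 against 5.98 to 6.22) and below them at 14 days (5.09 to 5.52 against 5.88 to 6.27).

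In control soil, as in nZVI soil, the family was compared between sampling times. Between 14 days and 0 days 5 of the 46 genes were called, no larger a share than the 11.9% of all probe sets (5.80% higher and 6.08% lower). None reached 2-fold, which 4.13% of all probe sets did. Higher at 14 days were gst-8 (0.85 ± 0.23, adjusted p = 0.0246) and gst-38 (0.56 ± 0.15, adjusted p = 0.0251), and lower were gst-1 (-0.76 ± 0.18, adjusted p = 0.0117), gst-13 (-0.59 ± 0.17, adjusted p = 0.0314) and gst-19 (-0.58 ± 0.14, limma adjusted p = 0.0132). For gst-38 the signals were 6.93, 6.83 and 6.92 at 14 days against 6.34, 6.23 and 6.42 at 0 days, and for gst-19, a dim gene, 2.20, 2.53 and 2.46 at 14 days against 2.85, 3.20 and 2.88 at 0 days. In none of the 5 did the times overlap, which follows largely from their being called and adds no support. All 5 were lost on leaving out some array: gst-1 without 0 days array 1 (adjusted p = 0.0516), and gst-19 without 0 days array 2 or 14 days array 1 (adjusted p = 0.0794 and 0.0645). Both gst-8 and gst-13 were lost without arrays 1 or 2 of either time (adjusted p between 0.0817 and 0.138), and gst-38 without arrays 1 or 2 of 0 days or any array of 14 days (adjusted p between 0.0635 and 0.104). The count was 1 without array 1 or 2 of 0 days or array 1 of 14 days, and 2 without array 2 of 14 days.

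Between 4 months and 0 days of control soil 8 of the 46 genes were called, against 9.71% of all probe sets (3.38% higher and 6.33% lower). Of these 8 genes 2 reached 2-fold, against 3.47%. The largest change was in gst-33, whose signals were 5.51, 5.65 and 4.64 at 4 months against 7.27, 7.65 and 7.05 at 0 days. The groups were far apart (-2.05 ± 0.26, limma adjusted p = 9.8e-05). Also lower at 4 months were gst-3 (-1.15 ± 0.32, adjusted p = 0.0302), gst-20 (-0.79 ± 0.20, adjusted p = 0.0167), gst-1 (-0.66 ± 0.18, adjusted p = 0.0246) and gst-13 (-0.64 ± 0.17, limma adjusted p = 0.0249). Higher were gst-35 (0.84 ± 0.22, adjusted p = 0.0245), gst-21 (0.74 ± 0.13, adjusted p = 0.00224) and gst-38 (0.64 ± 0.15, limma adjusted p = 0.0128). The signals of gst-20 were 6.56, 6.61 and 6.45 at 4 months against 6.98, 7.50 and 7.51 at 0 days. Those of gst-3 were 4.12, 5.80 and 4.84 at 4 months against 6.14, 6.19 and 5.87 at 0 days, with array 2 of 4 months near the earlier arrays. Those of gst-35 were 3.38, 3.69 and 4.10 at 4 months against 3.00, 2.90 and 2.75 at 0 days, and those of gst-21 were 3.23, 3.09 and 2.93 at 4 months against 2.30, 2.23 and 2.50 at 0 days. Both are dim: gst-35 lay below the array median on 17 of the 18 arrays, and gst-21 on all 18. No overlap of the times was seen in the 8 genes, which again follows largely from their being called. Only gst-33 and gst-21 held without any 1 array. The other 6 were lost without array 2 of 0 days (adjusted p between 0.0551 and 0.0934). All of these but gst-38 and gst-20 were also lost without array 1 of 0 days (adjusted p between 0.0533 and 0.112). Array 3 of 0 days lost gst-1, gst-20 and gst-35 (adjusted p between 0.0511 and 0.0782), array 1 of 4 months gst-3 and gst-13 (adjusted p = 0.128 and 0.0853), and array 3 of 4 months gst-1, gst-3, gst-20 and gst-35 (adjusted p between 0.0698 and 0.129). The count was 4 without array 1 and 2 without array 2 of 0 days, 5 without array 3 of 4 months, and 1 with these arrays fitted alone.

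Between 4 months and 14 days of control soil 12 of the 46 genes were called, 4 higher and 8 lower, against 20.9% of all probe sets (8.90% higher and 12.0% lower). Of these 12 genes 3 reached 2-fold, against 6.07%. Lower at 4 months were gst-33 (-1.87 ± 0.26, adjusted p = 2.2e-04), gst-14 (-1.52 ± 0.30, adjusted p = 0.00268), gst-15 (-1.07 ± 0.25, adjusted p = 0.00817), gst-3 (-0.99 ± 0.32, adjusted p = 0.0366) and gst-8 (-0.97 ± 0.23, limma adjusted p = 0.00826), with overlapping arrays for gst-3 alone among them. The signals of gst-14 were 5.08, 6.66 and 5.59 at 4 months against 7.62, 7.46 and 6.81 at 14 days, and those of gst-3 were 4.12, 5.80 and 4.84 at 4 months against 5.65, 5.95 and 6.12 at 14 days. In both genes array 2 of 4 months was the highest of its group. Higher were gst-32 (0.99 ± 0.26, adjusted p = 0.0142), gst-35 (0.65 ± 0.22, adjusted p = 0.0494), gst-21 (0.59 ± 0.13, adjusted p = 0.00666) and gst-19 (0.40 ± 0.14, limma adjusted p = 0.0493). The signals of gst-32 were 4.00, 3.85 and 4.76 at 4 months against 2.96, 3.21 and 3.48 at 14 days, and those of gst-35 were 3.38, 3.69 and 4.10 at 4 months against 3.05, 2.88 and 3.31 at 14 days. The times did not overlap in either gene, but gst-32 lay below the array median on 13 of the 18 arrays, and gst-35 on 17. Of these 9, gst-33, gst-14, gst-15, gst-8 and gst-21 held without any 1 array. Lost were gst-3 without array 2 or 3 of 14 days or array 1 or 3 of 4 months (adjusted p between 0.0936 and 0.196), and gst-32 without array 1 of 14 days or array 3 of 4 months (adjusted p = 0.0579 and 0.0768). Lost too were gst-19 without any array of 14 days or array 1 or 3 of 4 months, and gst-35 without any array of 14 days or array 2 or 3 of 4 months (adjusted p between 0.0547 and 0.2). The count was 7 without array 1 or 2 of 14 days or array 3 of 4 months, and 2 with these arrays fitted alone.

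In nZVI soil the changes with time were mostly falls after 0 days. Between 14 days and 0 days 8 of the 46 genes were called lower and 1 higher, against 8.80% of all probe sets (4.67% lower and 4.13% higher). Of these 8 reached 2-fold, against 3.72% of all probe sets. The gene called higher was gst-9 (1.19 ± 0.20, adjusted p = 0.00133). The largest falls were those of gst-12 (-1.80 ± 0.16, adjusted p = 2.6e-06), gst-33 (-1.64 ± 0.26, adjusted p = 8.0e-04), gst-31 (-1.33 ± 0.32, adjusted p = 0.0149), gst-20 (-1.20 ± 0.20, adjusted p = 0.00111) and gst-5 (-1.07 ± 0.15, limma adjusted p = 3.3e-04). The signals of gst-31 were 3.85, 4.01 and 3.22 at 14 days against 5.00, 5.44 and 4.60 at 0 days, and those of gst-20 were 6.96, 6.37 and 6.53 at 14 days against 7.70, 7.95 and 7.80 at 0 days. The times were separate in all of these genes. Of these, gst-31 was lost without array 2 of 0 days (adjusted p = 0.0872) or array 3 of 14 days (adjusted p = 0.0745).

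Between 4 months and 0 days of nZVI soil 13 of the 46 genes were called lower and 1 higher, against 22.2% of all probe sets (10.2% lower and 12.0% higher). Of these 9 reached 2-fold, against 7.95% of all probe sets. The gene called higher was again gst-9 (2.24 ± 0.20, adjusted p = 7.1e-07). Lower at 4 months were gst-33 (-2.11 ± 0.26, adjusted p = 2.2e-05), gst-14 (-1.85 ± 0.30, adjusted p = 3.4e-04), gst-3 (-1.66 ± 0.32, adjusted p = 0.00125), gst-12 (-1.54 ± 0.16, adjusted p = 4.9e-06) and gst-31 (-1.52 ± 0.32, limma adjusted p = 0.00242), and these 6 calls held without any 1 array. The signals of gst-14 were 5.70, 5.04 and 5.46 at 4 months against 7.07, 7.37 and 7.33 at 0 days. Those of gst-3 were 4.94, 4.99 and 4.81 at 4 months against 6.64, 6.77 and 6.32 at 0 days, and those of gst-31 were 3.63, 3.68 and 3.16 at 4 months against 5.00, 5.44 and 4.60 at 0 days. In each the times were far apart. The signals of gst-33 in nZVI soil were 6.12, 5.75 and 5.33 at 4 months against 7.96, 8.10 and 7.46 at 0 days. In this gene the fall with time was therefore seen in both soils.

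Between 4 months and 14 days of nZVI soil 8 of the 46 genes were called higher and 2 lower, against 8.53% of all probe sets (4.21% higher and 4.33% lower). Of these 2 reached 2-fold, against 3.26% of all probe sets. Higher at 4 months were gst-9 (1.05 ± 0.20, adjusted p = 0.00371), gst-5 (0.86 ± 0.15, adjusted p = 0.00216), gst-30 (0.86 ± 0.20, adjusted p = 0.0114), gst-17 (0.83 ± 0.21, adjusted p = 0.0176) and gst-34 (0.77 ± 0.21, limma adjusted p = 0.0271). Lower were gst-3 (-1.08 ± 0.32, adjusted p = 0.0422) and gst-6 (-0.66 ± 0.19, limma adjusted p = 0.0347). The signals of gst-30 were 7.66, 7.20 and 7.20 at 4 months against 6.33, 6.83 and 6.30 at 14 days. Those of gst-6 were 7.15, 7.01 and 6.98 at 4 months against 7.75, 7.79 and 7.58 at 14 days, and those of gst-3 were 4.94, 4.99 and 4.81 at 4 months against 6.23, 5.37 and 6.39 at 14 days. The times did not overlap in these genes. Only gst-9 and gst-5 held without any 1 array. Without array 1 of 14 days gst-30, gst-17, gst-34, gst-3 and gst-6 were lost (adjusted p between 0.0664 and 0.178), and without array 3 of 14 days gst-30, gst-17, gst-3 and gst-6 (adjusted p between 0.0644 and 0.201). Array 2 of 14 days lost gst-34 and gst-6 (adjusted p = 0.0544 and 0.0559), and array 1 of 4 months gst-30, gst-34, gst-3 and gst-6 (adjusted p between 0.0586 and 0.093). Array 2 of 4 months lost gst-17, gst-34, gst-3 and gst-6 (adjusted p between 0.0894 and 0.124), and array 3 of 4 months gst-34, gst-3 and gst-6 (adjusted p between 0.0527 and 0.118). The count was 2 without array 1 of 14 days, 4 without array 3 of 14 days, 3 without array 1 of 4 months and 4 without array 2 of 4 months. With the replicate block gst-35 (0.74, adjusted p = 0.0494 without it) was not called (adjusted p = 0.0855).

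Across the 6 group means the profile of gst-4 was most like those of gst-16 (Pearson r = 0.98), gst-13 (0.94), gst-24 (0.93), gst-9 (0.92) and gst-39 (0.92), and least like those of gst-10 (-0.85), gst-28 (-0.82) and gst-2 (-0.58). Of these gst-10 and gst-2 lay below the array median on all 18 arrays, and their group means spanned only 0.38 and 0.48 log2 units, so their place in this order rests on small differences of dim signals. These are descriptions over 6 groups whose arrays are shared by all genes. The widest span of group means within the family was 3.45 log2 units for gst-9, followed by 2.57 for gst-33. The narrowest was 0.35 for gst-43, another Zeta class gene. The lowest of a gene's 6 group means lay in nZVI soil of 14 days for 14 genes and in nZVI soil of 4 months for 11. The highest lay in nZVI soil of 0 days for 13 genes and in control soil of 0 days for 12. The shares over all probe sets are not given here, and these counts include dim genes and genes whose group means hardly differed. They do not show a trait of the family.

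Chromosome II holds 25 of the 46 genes, V 9, III and IV 4 each, X 3 and I 1. In the RefSeq gene order 4 groups of neighbours stand out, in which at most 3 other coding genes lie between 2 family members. One on II holds gst-6, gst-7, gst-8 and gst-9, and within it the differences at 0 days were 0.22, -0.32, -0.75 and -3.25 in that order. A second group on II holds 9 genes with no other coding gene between them (gst-20, gst-24, gst-15, gst-14, gst-12, gst-16, gst-19, gst-17 and gst-18). At 14 days 6 of these 9 were called lower, against 5.39% of all probe sets. At 0 days gst-12 was called higher and 3 genes lower, so neighbours differed in direction. Over all probe sets 8.22% were called higher and 7.74% lower at 0 days. The annotated spans of gst-17 and gst-18 overlap, and whether their probe sets share signal was not tested. In the other group of 9 on II (gst-26, gst-27, gst-28, gst-29, gst-39, gst-31, gst-32, gst-34 and gst-35) 2 genes were called at each time, all lower. In the whole family 11, 16 and 9 of 46 genes were called lower at 0 days, 14 days and 4 months. Over all probe sets it was 7.74%, 5.39% and 2.30%. On IV gst-3, gst-2 and gst-4 lie side by side, and at 0 days they differed by 0.51 (not called), 0.42 (called higher) and -1.76 (called lower). Probe sets of near-identical family members may also detect each other's transcripts, which was not tested here.

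**Figure D4:**
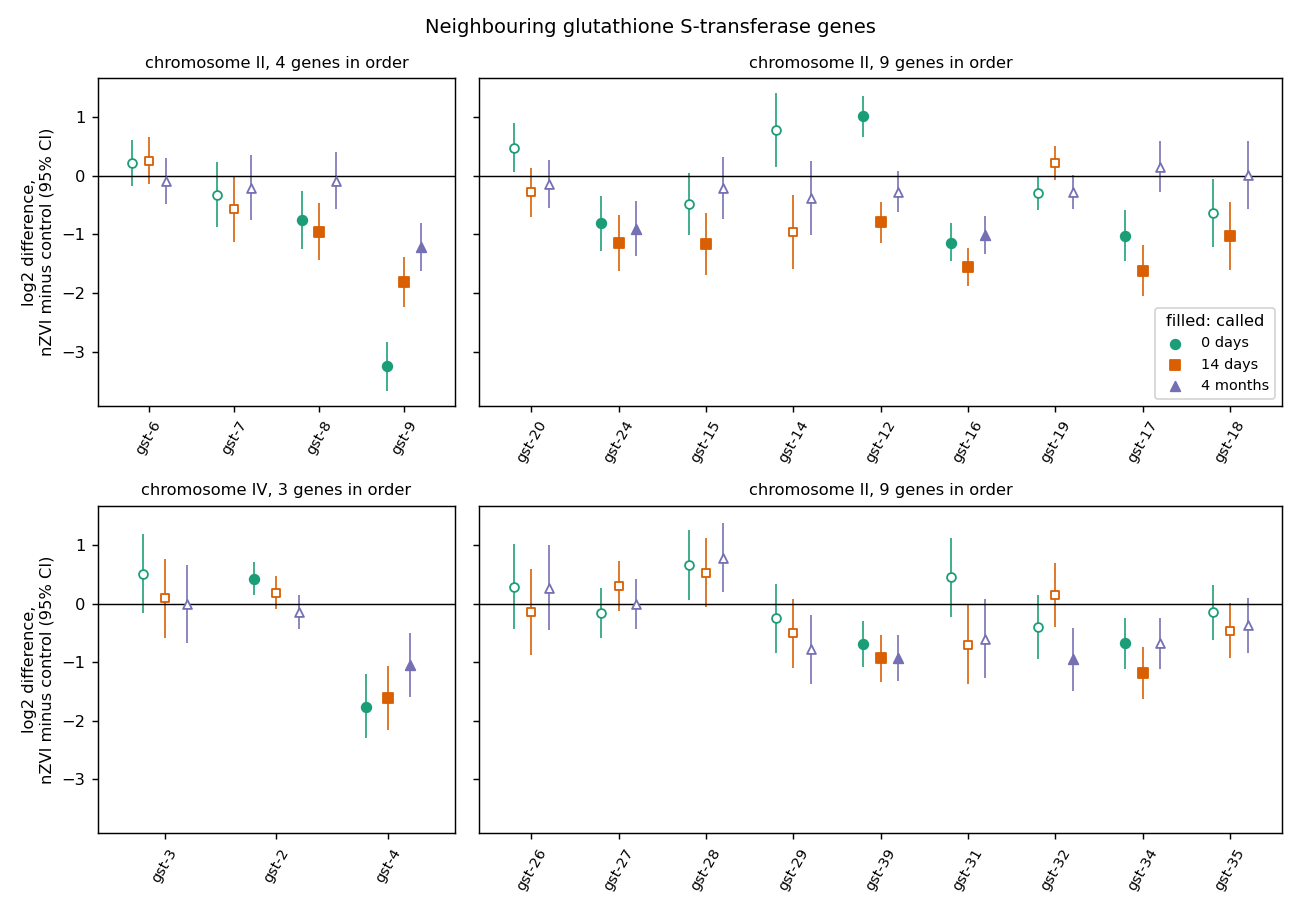
Log2 difference (nZVI soil minus control soil, y axis) with its 95% confidence interval for the genes of 4 neighbour groups in chromosome order (x axis), at 0 days (circles), 14 days (squares) and 4 months (triangles), filled where called. Groups hold both lower genes and genes near or above 0, as gst-9 (-3.25 at 0 days) in one group with gst-6 (0.22), and gst-4 (-1.76) beside gst-2 (0.42).

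The other genes of glutathione metabolism formed a list of 42 measured genes. At 0 days 8 were called lower and 4 higher, at 14 days 8 lower and 0 higher, and at 4 months 0 lower and 1 higher (mrp-3), or 12, 8 and 1 called in all of 42, beside the 16%, 8.99% and 7.08% over all probe sets. The list's median difference was -0.09, -0.19 and 0.04 at 0 days, 14 days and 4 months.

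The genes of both enzymes that build glutathione were called lower at 0 and 14 days. The gene of the rate-limiting enzyme, gcs-1, had signals of 9.54, 9.53 and 9.34 in nZVI soil against 10.87, 10.66 and 10.66 in control soil at 0 days, and 9.17, 9.45 and 9.46 in nZVI soil against 10.31, 10.44 and 10.77 in control soil at 14 days. The soils did not overlap, with limma differences of -1.26 ± 0.15 (adjusted p = 2.2e-05) and -1.15 ± 0.15 (adjusted p = 9.8e-05), and -0.48 ± 0.15 (adjusted p = 0.0651) at 4 months, where gcs-1 was called lower with the replicate block (adjusted p = 0.0439). The gene of glutathione synthetase, gss-1, differed by -0.70 ± 0.15, -0.76 ± 0.15 and -0.32 ± 0.15 (limma, adjusted p = 0.00318, 0.00239 and 0.196). That of glutathione reductase, gsr-1, differed by -0.67 ± 0.14, -0.55 ± 0.14 and -0.16 ± 0.14 (limma, adjusted p = 0.00254, 0.0154 and 0.508). The 14 days call of gsr-1 ended on omitting array 1 of the control soil (adjusted p = 0.071) and on omitting array 1 of the nZVI soil (adjusted p = 0.0983), and in a fit of the 14 days arrays alone (adjusted p = 0.0535).

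Among the regulators, skn-1 differed by -0.46 ± 0.16 (adjusted p = 0.0535), -0.72 ± 0.16 (adjusted p = 0.0061) and 0.02 ± 0.16 (limma, adjusted p = 0.949) at 0 days, 14 days and 4 months. The gene of WDR-23, which targets SKN-1 for degradation, was not called (-0.11 ± 0.13, -0.36 ± 0.13 and 0.14 ± 0.13). With array weights wdr-23 was called lower at 14 days (limma, adjusted p = 0.00658). The F-box gene xrep-4, which acts upstream of SKN-1, was lower at 0 days (-0.94 ± 0.16, adjusted p = 6.7e-04) and at 14 days (-0.55 ± 0.16, limma adjusted p = 0.0405). The 14 days call of xrep-4 was lost without control array 2 or 3 or nZVI array 1 or 3 (adjusted p between 0.109 and 0.2), with the 14 days arrays fitted alone (adjusted p = 0.129) and with arrays centred on their medians (adjusted p = 0.0859). The FOXO gene daf-16 was higher at 0 days (0.56 ± 0.14, limma adjusted p = 0.0121), which fell short of the threshold on omitting control array 2 (adjusted p = 0.0623).

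Among other users of glutathione, hmt-1, whose ABC transporter is needed for cadmium tolerance, had signals of 8.31, 8.12 and 8.05 in nZVI soil against 9.69, 9.75 and 10.01 in control soil at 0 days. The soils did not overlap, and the differences were -1.66 ± 0.19 (adjusted p = 1.2e-05), -1.69 ± 0.19 (adjusted p = 1.5e-05) and -0.54 ± 0.19 (limma, adjusted p = 0.0872) at 0 days, 14 days and 4 months. The phytochelatin synthase gene pcs-1, whose product makes metal-binding peptides from glutathione, was not called (-0.51 ± 0.17, -0.46 ± 0.17 and 0.14 ± 0.17, limma adjusted p = 0.0547, 0.117 and 0.662). With array weights pcs-1 was called lower at 14 days (limma, adjusted p = 0.00268). The glutaredoxin gene glrx-10 was lower at 0 days (-1.32 ± 0.17, adjusted p = 4.5e-05) and at 14 days (-1.12 ± 0.17, limma adjusted p = 3.6e-04), and the glyoxalase gene glod-4 at 0 days (-0.89 ± 0.16, limma adjusted p = 9.2e-04). The glutathione peroxidase gene gpx-3 was higher at 0 days (1.92 ± 0.30, limma adjusted p = 2.8e-04).

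The ABC transporters of the list did not move one way. For mrp-2 the differences were -1.34 ± 0.21 (adjusted p = 3.4e-04) at 0 days and -1.71 ± 0.21 (limma, adjusted p = 5.4e-05) at 14 days. Higher at 0 days were mrp-8 (1.37 ± 0.22, adjusted p = 3.1e-04) and the heme exporter gene mrp-5 (0.59 ± 0.16, limma adjusted p = 0.0178). With the replicate block mrp-5 was called higher at 4 months too (adjusted p = 0.0497). At 4 months mrp-3 was higher (0.93 ± 0.25, limma adjusted p = 0.0351), with 6.91, 7.26 and 7.15 in nZVI soil against 5.41, 6.92 and 6.21 in control soil, which overlap. The call of mrp-5 was lost without control array 1 or 2 or nZVI array 3 (adjusted p between 0.0607 and 0.0766), and that of mrp-3 without control array 1 or 3 or any of the 3 nZVI arrays (adjusted p between 0.0502 and 0.148) or with the 4 months arrays alone (adjusted p = 0.213).

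**Figure D5:**
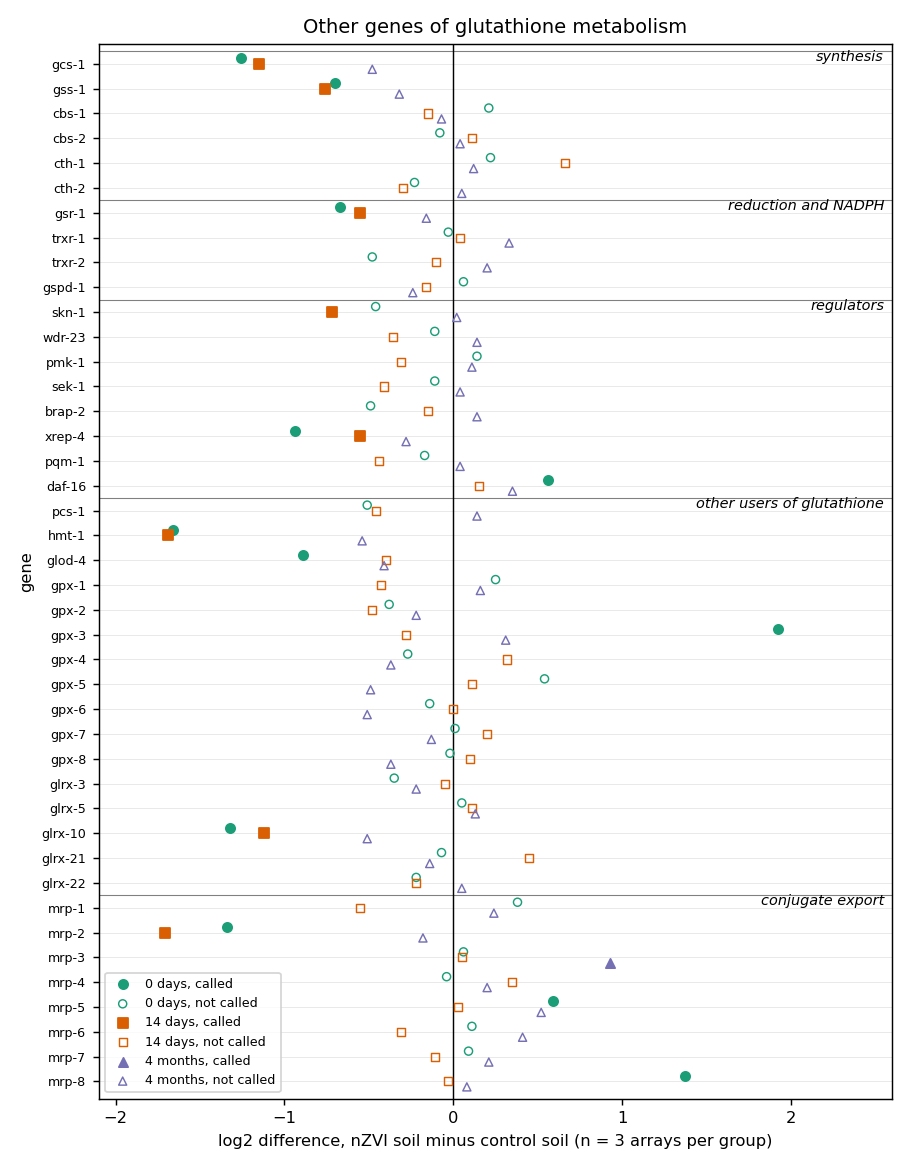
Log2 difference (nZVI soil minus control soil, x axis) of 42 other genes of glutathione metabolism (y axis, by role) at 0 days (circles), 14 days (squares) and 4 months (triangles), filled where called. At 0 and 14 days gcs-1, gss-1, gsr-1, hmt-1, glrx-10 and mrp-2 lie left of 0, and gpx-3 (1.92) and mrp-8 (1.37) lie farthest right at 0 days.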

How the data were processed

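Whole-animal RNA of 18 samples (3 arrays in each of 6 groups) was hybridised to 1-colour C. elegans Gene 1.0 ST arrays, per the labels. The deposited log2 values had been made by the authors with RMA, and Transcriptome Analysis Console is also named, per the submitters' processing notes. No version of either is given in the sources used here. No scanner files were used, so background correction and normalization could not be varied. Genes were named through the platform annotation: of 28387 probe sets 25546 have a single symbol, 646 several and 2195 none. Neighbour order came from RefSeq (WBcel235), without coordinates. No protein or promoter sequences were used here.

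All probe sets entered one limma 3.58.1 model (R 4.3.3) with 6 group means, moderated by eBayes, with 13 two-sided contrasts and Benjamini-Hochberg adjustment over all probe sets. Groups of 3 arrays limit the precision. On simulated data for the 0 days comparison over 28387 probe sets, 8%, 80%, 92% and 100% of 50 probe sets each were recovered at log2 changes of 0.5, 1, 2 and 3. Of 28187 unchanged ones 9 were called. The simulation had independent normal noise and few changed probe sets, whereas 16.0% of all probe sets were called in the data at 0 days. Its adjusted threshold was therefore stricter, so these shares do not give the recovery in the data. Alternatives were a fit of only the arrays compared, array weights, eBayes with trend and robust settings, median centring, a filter on dim probe sets, a 2-fold rule, a replicate block, and each array left out. No 2 arrays shared more than 0.109% identical values.

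The replicate numbers in the labels were taken as pairs where all 3 same-numbered arrays correlated above 0.1 in their deviations from the group means. That held for nZVI against control soil at 4 months (r = 0.374, 0.28 and 0.104) and for 4 months against 14 days in nZVI soil (r = 0.108, 0.153 and 0.209), and the labels do not say what the numbers share. The family, the pathway and marker lists and the tests were chosen with earlier results of these data known. Named with values were the genes called in any soil comparison or its change with time, up to 5 rises and 5 falls in each comparison of times within a soil, and gst-1, gst-4, gst-5, gst-7, gst-9, gst-10, gst-38, gst-42 and gsto-1 in every case. The pathway genes named were those called in a soil comparison and gcs-1, gss-1, gsr-1, skn-1, wdr-23, pcs-1 and hmt-1.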

Additional observations from a re-analysis of the deposited data

Results flagged for a closer look

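The nZVI minus control difference changed between sampling times in 4 genes, by limma's test of the change itself (Benjamini-Hochberg adjusted). For gst-12 it changed by -1.81 ± 0.23 (SE, adjusted p = 4.4e-04) between 14 days and 0 days and by -1.28 ± 0.23 (adjusted p = 0.00454) between 4 months and 0 days. For gst-9 it changed by 1.44 ± 0.28 (adjusted p = 0.0163) between 14 days and 0 days and by 2.04 ± 0.28 (adjusted p = 5.4e-04) between 4 months and 0 days, so that the gap between the soils was smaller later. For gst-13 it changed by 1.11 ± 0.24 (adjusted p = 0.0148) between 4 months and 0 days. For gst-17 it changed by 1.17 ± 0.29 (adjusted p = 0.0302) between 4 months and 0 days and by 1.77 ± 0.29 (adjusted p = 0.00895) between 4 months and 14 days.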

How the results depend on the processing

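For the named glutathione S-transferase genes, and for the named pathway genes in the 3 single-time soil comparisons, 2136 values kept their side of the threshold over the alternatives run, 212 fell short of it, 33 passed it and 0 reversed. At 0 days skn-1 passed it in 3 settings (adjusted p between 0.0369 and 0.0385) and pcs-1 in 5 (adjusted p between 0.0169 and 0.0442), apart from single arrays left out. With a 2-fold rule added, the family's counts were 7 at 0 days, 3 at 4 months, 3 for the mean of times, 0, 2 and 3 in control soil (14 days minus 0 days, 4 months minus 0 days, 4 months minus 14 days), and 9 and 2 in nZVI soil (4 months minus 0 days, 4 months minus 14 days), because fewer genes can pass both rules. With array weights they were 25 at 14 days, 10 and 8 for the change of the soil difference (14 days minus 0 days, 4 months minus 14 days), 16 in control soil (14 days minus 0 days), and 15 and 16 in nZVI soil (14 days minus 0 days, 4 months minus 14 days). The weights ranged from 0.32 to 5.81, the largest being that of control array 2 of 14 days, and the cause was not tested. With only the arrays compared they were 4 at 4 months, 4 for the change from 0 to 14 days, and 1 and 2 in control soil (4 months minus 0 days, 4 months minus 14 days), and without dim probe sets 4 for the change from 0 to 14 days. With the replicate block they were 3 for the change of the soil difference between 4 months and 14 days and 3 in control soil between 14 days and 0 days. Where the numbers are not pairs, the block left gst-2 at 0 days uncalled (adjusted p = 0.0755) and the change of gst-9 between 14 days and 0 days (adjusted p = 0.0519). In control soil it ended the calls of gst-13 and gst-38 between 14 days and 0 days (adjusted p = 0.0516 and 0.0545), and those of gst-19, gst-35 and gsto-3 between 4 months and 14 days (adjusted p = 0.0796, 0.0775 and 0.0569). Between 4 months and 0 days it added gst-17 in control soil (adjusted p = 0.0485). In nZVI soil between these times it ended gst-36 and gsto-3 (adjusted p = 0.063 and 0.0602) and added gst-11 and gst-17 (adjusted p = 0.0462 and 0.0399). Between 14 days and 0 days of nZVI soil it added gst-1 and gst-7 (adjusted p = 0.0305 and 0.0301). The change of gst-33 passed with the block between 14 days and 0 days and between 4 months and 14 days (adjusted p = 0.00781 and 0.0108), and that of gst-5 between 4 months and 14 days (adjusted p = 0.0486). The means of times of gst-7 and gst-32 passed too (adjusted p = 0.0288 and 0.0159). The block also gave gst-18, gst-28, gst-30 and gst-33 at 0 days and gsto-1 at 14 days an adjusted p under 0.05. In the 2 paired comparisons it changed no call of the family beside those given with them. Every nZVI array of 14 days and 4 months correlated best with the control array of its own number (3 of 3), and 2 of 3 did at 0 days.

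Leaving out each array in turn gave 10 to 13 called genes at 0 days, 13 to 16 at 14 days, 3 to 10 at 4 months and 17 to 20 for the mean of times. It gave 1 to 3, 3 to 5 and 1 to 5 for the changes of the soil difference (14 days minus 0 days, 4 months minus 0 days, 4 months minus 14 days). In control soil it gave 1 to 6, 2 to 10 and 7 to 11, and in nZVI soil 7 to 12, 11 to 15 and 2 to 8, in the same order of times. For the change between 4 months and 14 days the 5 were found without control array 2 of 4 months, 3 without control array 3 of 14 days and 2 without nZVI array 2 of 14 days. For that between 14 days and 0 days 1 was found without control array 1 of 0 days or of 14 days. Median centring moved the median of all probe sets by at most 0.071 in size. No alternative probe set could be tried, since each gene has 1. Signals below the array median, as for 7 of the genes, limit what a missing call can show.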
